A study of Mus musculus with 8 samples.

Results

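The genes of glycolysis and glucose uptake were followed in sorted heart cells of mouse embryos. They comprised 32 genes, of 27827 gene names on the array, that take up glucose, split it to pyruvate, exchange lactate or gate the entry of pyruvate into the mitochondrion. They were chosen by name as the known genes of these steps, and a gene was every non-control probe that the files give that name. All 32 were measurable enough to be tested, among 12889 tested gene names, and 29 were well above background on all 8 arrays. Pfkfb1, Pfkfb4 and the gene that the files call Pgm1 were above background on 6 or 7 arrays.

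Both groups came from hearts at stage E10.5 of embryos of the MinKGFP line, in which a bacterial artificial chromosome carries green fluorescent protein (GFP) under the control of minK (Kcne1), a potassium channel subunit. Dissociated cells were sorted by fluorescence into 4 GFP-high samples, described by the submitters as cardiac conduction system, and 4 GFP-low samples, described as chamber myocardium. All samples carried the transgene, so the groups differ in reporter brightness and not in genotype; strain, sex and the number of embryos pooled per sample were not given in the sources used here. The label protocols state that 5 ng of RNA per sample was amplified and that 2 ug of the amplified product was labelled for a 1-colour Agilent array. The labels call the samples biological replicates, and p-values measure the spread between these samples. In sorted bulk samples, more cells of a type and more RNA per cell cannot be told apart.

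Glycolysis splits glucose into pyruvate in the cytosol and yields ATP without oxygen. Glucose enters through facilitative carriers and is trapped by hexokinase, phosphofructokinase sets the pace, and the lower steps harvest ATP. Pyruvate is then either reduced to lactate, which leaves the cell with a proton through monocarboxylate carriers, or oxidised by pyruvate dehydrogenase. The embryonic heart depends heavily on glycolysis, and the maturing heart moves to fatty acid oxidation. Several steps have a general isoform and a muscle isoform, which become prominent in striated muscle as it differentiates.

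An array carried 43379 non-control spots, of which 36.3% to 50.7% were well above background and none was saturated. GFP-high replicate 3 had the lowest share. Both probes of the reporter gene Kcne1 were higher on every GFP-high array, by 2.83 and 1.29 on the log2 scale (exact permutation p = 0.0286 for each). The cells were sorted on GFP under minK control, so these values check the sort and are not a separate finding. Replicates 1 and 2 of both groups shared slide 1, and replicates 3 and 4 shared slide 2. All 13 cardiomyocyte markers were measurable. Levels below are log2 signals relative to the 75th percentile of the same array, and differences are GFP-high minus GFP-low, given with their standard error in the limma fit (n = 4 arrays per group).

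Most of the pathway lay on the GFP-high side, but by small amounts. Of the 32 genes, 29 had a positive difference and 3 a negative one (Pfkfb1, Slc16a1 and Pdk1). The share of positive differences was 90.6%, beside 62.1% of all tested genes, and it counted 26 genes under quantile normalisation, where Hk1, Pgam1 and Eno1 turned negative. The median difference was 0.50, beside 0.16 for all tested genes, and it was 0.59 within slide 1 and 0.41 within slide 2, where all tested genes gave 0.27 and 0.06. Under quantile normalisation the median of the 32 genes was 0.20, beside 0.09 for all tested genes, and under normexp background correction it was 0.29, beside 0.10. Without GFP-low replicate 3 it was 0.27, beside 0.09.

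No gene of the pathway passed limma at a Benjamini-Hochberg adjusted p under 0.05, where 0.14% of all tested genes did, and the smallest adjusted p among the 32 was 0.158. At an unadjusted limma p under 0.05 there were 7 genes, all with a positive difference. This was 21.9% of the 32, beside 14.3% of all tested genes with such a p and 7.94% with such a p and a higher level in GFP-high. In the same 7 genes, 21.9% of the 32, every GFP-high array lay above every GFP-low array, beside 5.87% of all tested genes. They were Slc2a3, Slc2a4, Gpi1, Pfkfb2, Eno3, Ldhb and Pdk3. Without GFP-high replicate 3 the number of separated genes was 17, of which 16 were higher and Slc16a1 was lower, beside 22% of all tested genes separated in either direction.

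**Figure D1:**
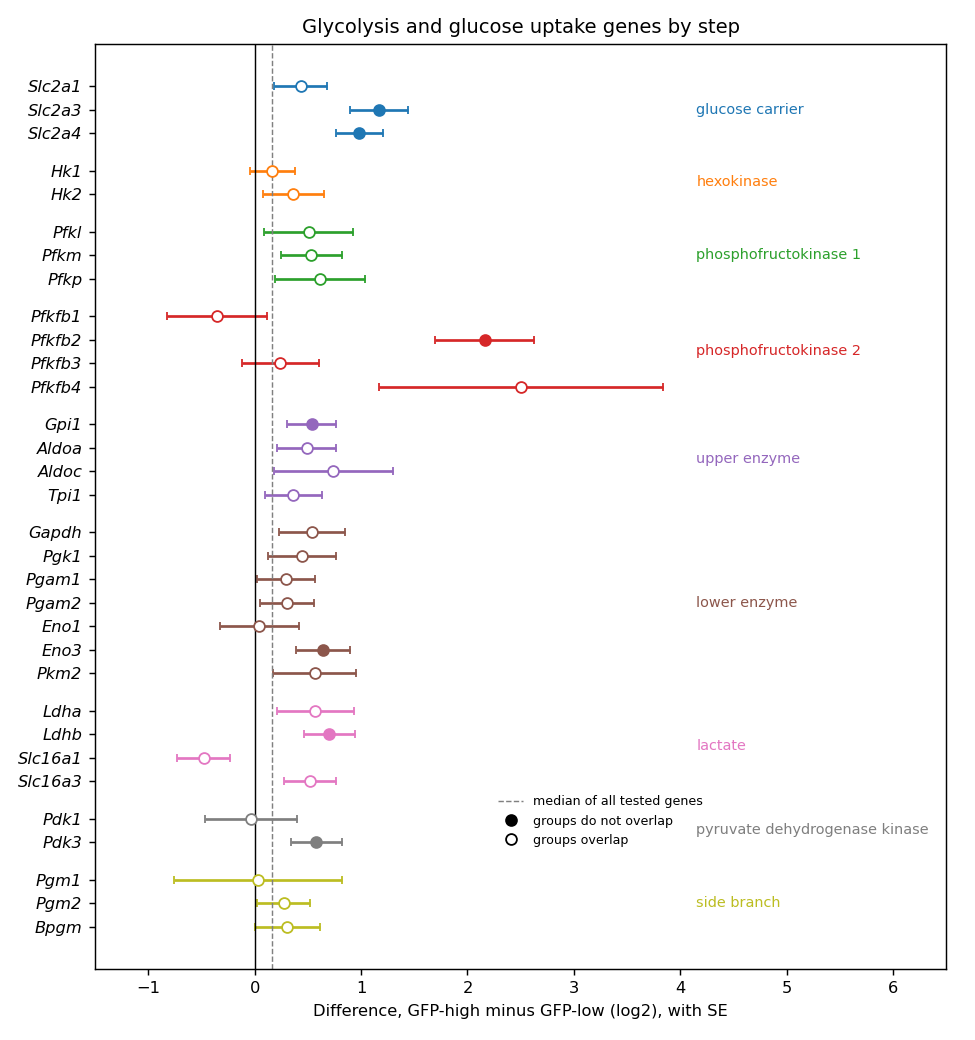
Difference between GFP-high and GFP-low for each of the 32 genes, grouped and coloured by step. The horizontal axis is the log2 difference, bars are the standard error of the fit (n = 4 arrays per group), filled points are genes whose arrays do not overlap, and the dashed line is the median of all tested genes, 0.16. Of the points, 29 lie above 0 (26 under quantile normalisation), and the 7 filled points run from 0.54 to 2.16.

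Brightness bears on these values, because bright genes as a whole leaned to GFP-high. In the brightest decile of tested genes the median difference was 0.24 and 81.5% were positive. The pathway is made of abundant transcripts, and 19 of the 32 genes lay in that decile, with a median difference of 0.43 and 16 above the median of that decile. Over all deciles, 26 of the 32 genes lay above the median of their own.

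**Figure D2:**
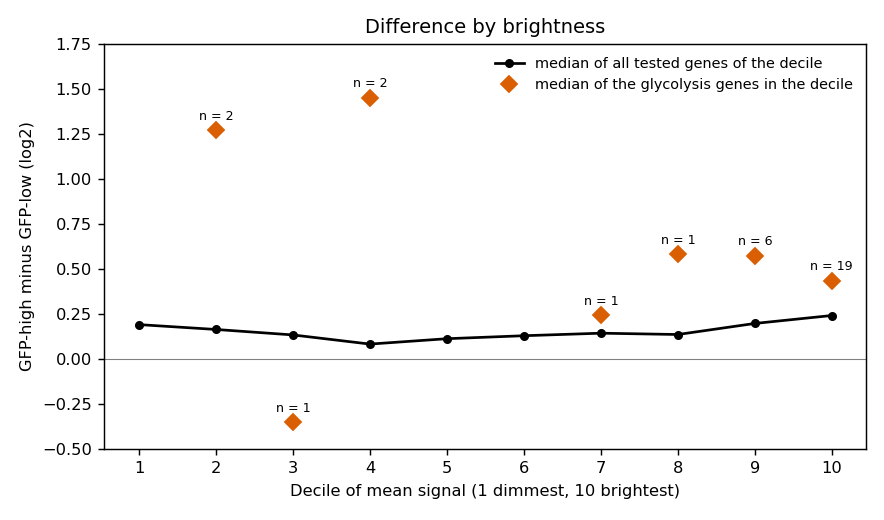
Median log2 difference, GFP-high minus GFP-low, in each decile of mean signal, from the dimmest (1) to the brightest (10). The line joins the medians of all tested genes, between 0.08 and 0.24, and each diamond is the median of the glycolysis genes in that decile with their number, such as 0.43 for the 19 genes of the brightest decile.

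Proximal promoters were read for the genes with non-overlapping groups that have exactly 1 entry in RefSeq's promoter windows on GRCm38.p6, to show the sequence these genes carry just upstream. Hypoxia-inducible factor (HIF), a transcription factor known to drive many glycolysis genes, binds elements built on the core ACGTG or GCGTG. Each window below is the 250 bases before the start site, written along the gene's strand, and capitals mark every match to either core on either strand, so CACGT and CACGC are matches on the other strand.
Gpi1 (chr7:34230337-34230586, minus strand, no core): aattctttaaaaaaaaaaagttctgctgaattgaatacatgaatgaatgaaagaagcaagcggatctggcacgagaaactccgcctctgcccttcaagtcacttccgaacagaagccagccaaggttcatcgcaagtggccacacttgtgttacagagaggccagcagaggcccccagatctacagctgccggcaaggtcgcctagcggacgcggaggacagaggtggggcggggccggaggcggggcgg
Eno3 (chr11:70656926-70657175, plus strand, 1 core): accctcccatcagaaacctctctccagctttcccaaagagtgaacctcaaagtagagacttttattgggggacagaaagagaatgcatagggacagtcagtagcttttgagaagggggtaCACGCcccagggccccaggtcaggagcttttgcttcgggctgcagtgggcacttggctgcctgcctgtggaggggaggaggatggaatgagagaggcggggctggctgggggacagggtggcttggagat
Ldhb (chr6:142507958-142508207, minus strand, 1 core): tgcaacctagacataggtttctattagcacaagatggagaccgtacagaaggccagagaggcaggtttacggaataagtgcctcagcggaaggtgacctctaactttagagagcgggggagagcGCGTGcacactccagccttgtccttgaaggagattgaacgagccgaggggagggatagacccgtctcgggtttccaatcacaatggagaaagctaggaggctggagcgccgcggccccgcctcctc
Pdk3 (chrX:93832151-93832400, minus strand, 4 cores): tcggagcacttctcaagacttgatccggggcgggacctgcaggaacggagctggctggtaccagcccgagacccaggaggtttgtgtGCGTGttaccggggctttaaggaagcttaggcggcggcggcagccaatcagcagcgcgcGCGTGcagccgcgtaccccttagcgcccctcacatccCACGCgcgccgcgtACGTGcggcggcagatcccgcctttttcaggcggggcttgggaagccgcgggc

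The Pdk3 window held 4 cores and 67.6% G and C, the Gpi1 window none and 55.2%. Of the 32 genes, 30 had an entry, with 48 windows in all; Slc2a3 and Slc2a4 are named only. A core stood in 36 of the 48 windows (75%) and in at least 1 window of 26 of the 30 genes, beside 38.6% of 32851 windows of all genes. The E-box CACGTG, each of which also holds a HIF core, stood in 5 windows, and in 6.02% of all windows. The GC box GGGCGG stood in 25 windows (52.1%), beside 32.7% of all windows, and TATAAA in 2, beside 12.4%. The windows of the pathway were also richer in G and C (median 58.8%) than all windows (52.4%), and GC content was not taken into account in these shares. A match describes the letters only.

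Of the 3 glucose carriers that open the pathway, 2 separated the groups. Slc2a3 (GLUT3), a high-affinity carrier known from neurons and the early embryo, and Slc2a4 (GLUT4), the insulin-responsive carrier of muscle and fat, were higher on every GFP-high array. Slc2a1 (GLUT1), the widespread basal carrier, had a smaller difference with overlapping groups.

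Slc2a3 read 4.52, 4.30, 4.06 and 4.45 on the GFP-high arrays 1 to 4, and 3.50, 3.40, 2.62 and 3.13 on the GFP-low arrays. The lowest GFP-high array was above the highest GFP-low array. The difference was 1.17 ± 0.27, or 2.25-fold (limma adjusted p = 0.162; exact permutation p = 0.0286, the smallest that 4 against 4 arrays allow), with 0.96 within slide 1 and 1.38 within slide 2. It rests on 1 probe, at chr6:122678075-122678134 of mouse build mm9; the other probes of the name were above background on 0 and 1 arrays and were not tested, and the files place 1 of these on chromosome 17.

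Slc2a4 read 3.92, 3.94, 3.89 and 3.66 on the GFP-high arrays, and 3.10, 2.65, 2.74 and 2.97 on the GFP-low arrays. The groups were well apart, although GFP-high replicate 4 lay below its 3 fellows. The difference was 0.98 ± 0.22, or 1.98-fold (limma adjusted p = 0.158; exact permutation p = 0.0286), with 1.05 and 0.92 within slides 1 and 2. Its probe, at chr11:69756073-69756132 of mm9, is printed at 10 spots per array, whose SD on the log2 scale was 0.03 to 0.15 on an array. With dim values raised to a common floor across all genes Slc2a4 passed, with an adjusted p of 0.0475, although its own values were not altered.

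Slc2a1 read 7.07, 7.05, 6.84 and 7.29 on the GFP-high arrays, and 6.63, 6.81, 6.18 and 6.91 on the GFP-low arrays. The highest GFP-low array lay above the lowest GFP-high array. The difference was 0.43 ± 0.25 (limma adjusted p = 0.447; exact permutation p = 0.0571).

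**Figure D3:**
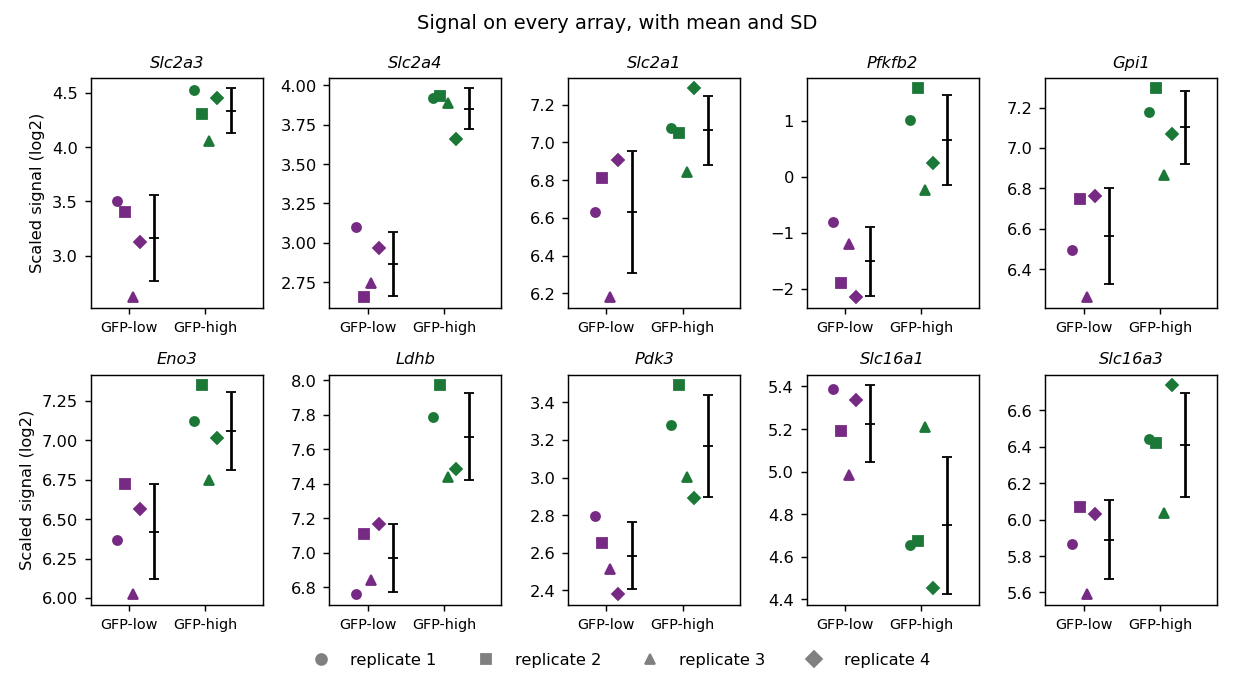
Log2 signal relative to the array's 75th percentile for 10 genes, with 1 point per array, the replicate number as the symbol, and the group mean with its SD beside the points (n = 4). Each panel has its own scale. Slc2a3, Slc2a4, Pfkfb2, Gpi1, Eno3, Ldhb and Pdk3 show no overlap of the groups, Slc2a1 and Slc16a3 overlap narrowly, and Slc16a1 runs the other way, with GFP-high replicate 3 among the GFP-low values.

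Hexokinases, which trap glucose as glucose 6-phosphate, were close to level between the groups. Hk1 is the general isoform, and Hk2 the isoform of insulin-responsive and hypoxic tissue.

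Hk1 read 7.38, 7.42, 7.06 and 7.24 on the GFP-high arrays, and 7.19, 6.99, 7.09 and 7.16 on the GFP-low arrays. Its difference was 0.17 ± 0.21 (limma adjusted p = 0.722), it turned negative under quantile normalisation and under another background correction, and its 5 tested probes ran from 0.03 to 0.73. Hk2 read 6.58, 6.36, 6.26 and 5.60 against 5.99, 5.47, 5.83 and 6.04. GFP-high replicate 4 was below 3 of the 4 GFP-low arrays, and the difference was 0.36 ± 0.28 (limma adjusted p = 0.564), with 0.74 within slide 1 and -0.01 within slide 2.

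The upper enzymes carry glucose 6-phosphate to triose phosphate. Among them Gpi1, the isomerase that makes fructose 6-phosphate, had non-overlapping groups. Aldoa, the muscle and general aldolase, Aldoc, the brain aldolase, and Tpi1, the triose phosphate isomerase, had positive differences that were within reach of the spread between arrays.

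Gpi1 read 7.18, 7.29, 6.87 and 7.07 on the GFP-high arrays, and 6.49, 6.75, 6.26 and 6.76 on the GFP-low arrays. The groups did not overlap, though both replicates 3 were the lowest of their group. The difference was 0.54 ± 0.23, or 1.45-fold (limma adjusted p = 0.347; exact permutation p = 0.0286), from a probe at chr7:34987195-34987254 of mm9 whose 10 spots had an SD of 0.01 to 0.09. Under quantile normalisation the difference was 0.29, and under normexp correction 0.35. Its second probe was above background on 3 arrays and was not tested. Aldoa gave 0.49 ± 0.27 (limma adjusted p = 0.432) and a second probe 0.44. Tpi1 gave 0.36 ± 0.27 (limma adjusted p = 0.543). Aldoc gave 0.74 ± 0.56 (limma adjusted p = 0.552), and this rested on GFP-high replicate 1, at 1.39 against -0.62 to -0.42 on the others; within slide 2 the difference was -0.01.

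Phosphofructokinase 1 commits sugar to glycolysis. Its 3 genes, Pfkl (liver type), Pfkm (muscle type) and Pfkp (platelet type), had differences between 0.51 and 0.61, and none of them separated the groups. Without GFP-low replicate 3 these were 0.19 for Pfkl, 0.48 for Pfkm and 0.36 for Pfkp.

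Pfkm read 3.93, 4.00, 3.13 and 3.49 on the GFP-high arrays, and 2.99, 3.55, 2.96 and 2.92 on the GFP-low arrays. GFP-low replicate 2 stood apart from its group and lay above 2 GFP-high arrays. The difference was 0.53 ± 0.29 (limma adjusted p = 0.418; exact permutation p = 0.0857). Pfkl read 4.50, 4.94, 3.82 and 4.31 against 3.63, 4.34, 2.94 and 4.63. Its groups overlapped broadly, with a difference of 0.51 ± 0.42 (limma adjusted p = 0.583). Pfkp read 5.01, 5.47, 4.34 and 4.14 against 4.18, 4.91, 3.36 and 4.05. Its difference was 0.61 ± 0.42 (limma adjusted p = 0.515), and a further probe also gave 0.61, while the third gave -0.25.

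The bifunctional enzymes of phosphofructokinase 2, which make and break fructose 2,6-bisphosphate, the strongest activator of phosphofructokinase 1, differed most among themselves. Pfkfb2, the isoform typical of heart, was the gene with the largest difference among those with non-overlapping groups. Pfkfb3, the widespread inducible isoform, Pfkfb1, the liver and skeletal muscle isoform, and Pfkfb4, the testis isoform, had overlapping groups.

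Pfkfb2 read 1.02, 1.58, -0.24 and 0.24 on the GFP-high arrays, and -0.80, -1.89, -1.20 and -2.15 on the GFP-low arrays. All 4 GFP-high arrays were above all 4 GFP-low arrays, with a wide spread inside each group. The difference was 2.16 ± 0.47, or 4.47-fold (limma adjusted p = 0.158; exact permutation p = 0.0286), with 2.64 within slide 1 and 1.68 within slide 2. Under normexp background correction it was 1.25, and with the mean of its probes 1.70. Its probe lies at chr1:132595301-132595804 of mm9. A second tested probe gave 1.25 ± 1.33 and was above background on 4 arrays.

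Pfkfb3 read 1.91, 1.61, 2.73 and 2.04 against 2.42, 2.13, 1.55 and 1.22. Its sign depended on the slide, with -0.52 within slide 1 and 0.999 within slide 2, and the pooled difference was 0.24 ± 0.36 (limma adjusted p = 0.765). Pfkfb4 gave 2.50 ± 1.34 and no call (limma adjusted p = 0.413). This value rested on signals that were not above background, since 4 GFP-high but 2 GFP-low arrays measured the gene and its GFP-low values ran from -5.62 to 0.07. With dim values raised to a common floor the difference was 0.72, and under normexp background correction it was 0.93. Pfkfb1 gave -0.35 ± 0.47 (limma adjusted p = 0.738).

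The lower enzymes make ATP and pyruvate. All 7 differences were positive, with a median of 0.45 and a range of 0.04 to 0.64, but Eno1 turned negative under quantile normalisation and under another background correction, and Pgam1 turned negative under quantile normalisation. Only the muscle enolase Eno3 separated the groups. Gapdh, which oxidises glyceraldehyde 3-phosphate and is widely used as a reference gene, did not.

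Eno3 read 7.12, 7.35, 6.75 and 7.02 on the GFP-high arrays, and 6.37, 6.72, 6.02 and 6.56 on the GFP-low arrays. The groups were apart by 0.03, the lowest GFP-high value being that of replicate 3 and the highest GFP-low value that of replicate 2. The difference was 0.64 ± 0.26, or 1.56-fold (limma adjusted p = 0.318; exact permutation p = 0.0286), from a probe at chr11:70475929-70475988 of mm9. Under quantile normalisation it was 0.40. Eno1, the general enolase, read 5.20, 5.23, 4.12 and 5.16 against 4.67, 5.33, 4.25 and 5.29. GFP-high replicate 3 was the lowest of all 8 arrays, and the difference was 0.04 ± 0.37 (limma adjusted p = 0.967).

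The mutases that move the phosphate from carbon 3 to carbon 2 of glycerate gave no contrast between isoforms. Pgam2, the muscle form, read 6.63, 6.51, 5.95 and 6.41 against 5.92, 6.28, 5.78 and 6.30. Pgam1, the general form, read 8.92, 8.91, 8.42 and 8.81 against 8.49, 8.65, 7.93 and 8.83. Both overlapped, with differences of 0.30 ± 0.26 and 0.29 ± 0.27 (limma adjusted p = 0.589 and 0.629).

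Gapdh read 9.17, 9.41, 8.68 and 9.14 against 8.42, 8.94, 7.94 and 8.95. Its difference was 0.54 ± 0.31 (limma adjusted p = 0.443), and a second probe gave 0.47. The mouse genome holds many retrocopies of Gapdh, and a probe may not tell near-identical copies from the gene. Pgk1, which yields the first ATP of the pathway, gave 0.45 ± 0.32 (limma adjusted p = 0.528). Pkm2, now named Pkm, the muscle-type pyruvate kinase, gave 0.56 ± 0.39 (limma adjusted p = 0.521); its other probes gave 0.53 and 1.64, and its splice forms were not analysed separately.

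The muscle-type genes named in the question were compared with their general counterparts by the log2 ratio of both signals on the same array, which asks whether the 2 genes differed unequally between groups. The ratio of Eno3 to Eno1 was 0.60 ± 0.21 higher in GFP-high, with 1.92, 2.12, 2.63 and 1.85 on the GFP-high arrays and 1.70, 1.39, 1.78 and 1.27 on the GFP-low arrays. These did not overlap (exact two-sided permutation p = 0.0286, and 0.157 after Benjamini-Hochberg adjustment over 11 pairs), but the nearest arrays, at 1.85 and 1.78, were close. The 2.63 is GFP-high replicate 3, where Eno1 read 4.12, against 5.16 to 5.23 on the other GFP-high arrays. With 1 array left out, the difference of this ratio was as low as 0.43. For Pgam2 and Pgam1 the difference of the ratios was 0.01 ± 0.10 (exact permutation p = 0.943), for Pfkm and Pfkl 0.03 ± 0.36 (exact permutation p = 0.914), and for Pfkm and Pfkp -0.08 ± 0.27 (exact permutation p = 0.743). So 1 of the 3 muscle-type genes had a ratio that separated the groups. The sign of the others depended on the slide, on 1 array or on the choice of probe.

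Among the other pairs, the ratio of Slc2a3 to Slc2a1 also separated the groups, by 0.74 ± 0.15 (exact permutation p = 0.0286, adjusted 0.157). For Slc2a4 and Slc2a1 it was 0.55 ± 0.22 (exact permutation p = 0.0857, adjusted 0.236), and for Slc16a3 and Slc16a1 0.999 ± 0.31 (exact permutation p = 0.0571, adjusted 0.21). The remaining pairs, Hk2 and Hk1, Aldoc and Aldoa, Ldhb and Ldha, and Pdk3 and Pdk1, gave 0.13 to 0.61 with exact permutation p from 0.286 to 0.657. No pair passed after adjustment, and with 11 pairs a single pair at the smallest p could reach no less than 0.314.

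**Figure D4:**
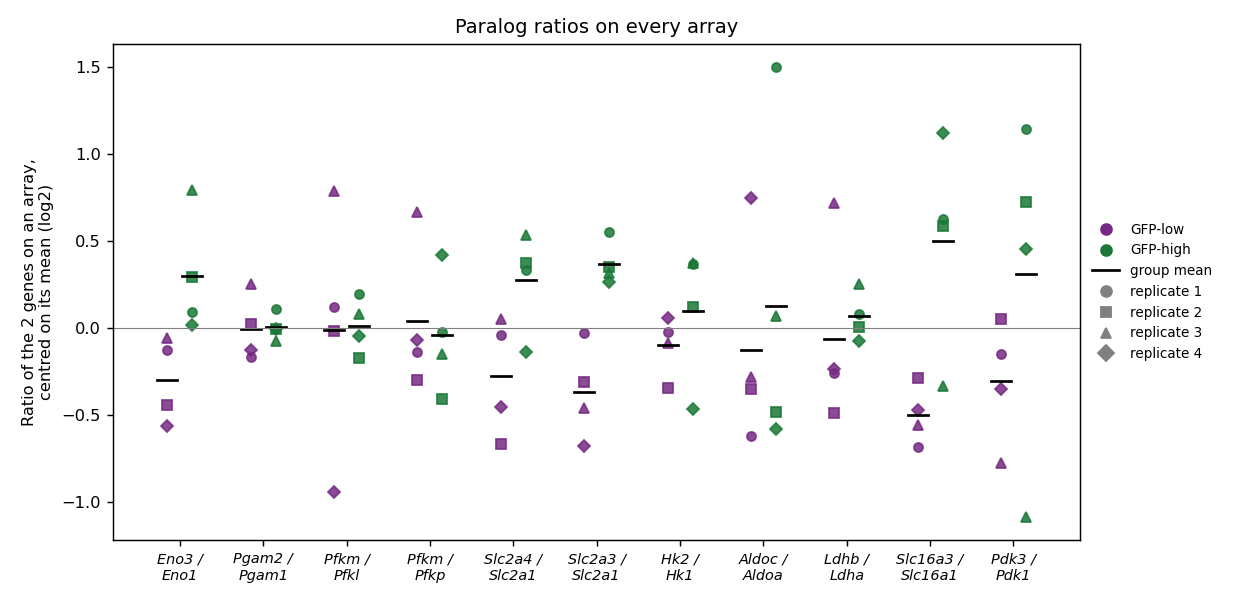
Log2 ratio of the signals of 2 related genes on each array, for 11 pairs, each pair centred on its mean over the 8 arrays. Points are arrays, the symbol gives the replicate, and bars are group means (n = 4). The Eno3 to Eno1 and Slc2a3 to Slc2a1 ratios do not overlap between groups, while the 3 ratios of Pgam2 and Pfkm are centred near 0 in both.

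Lactate handling held both directions. Ldhb, the subunit that favours lactate oxidation and is typical of heart, was higher on every GFP-high array. Ldha, the subunit of lactate production, overlapped. Slc16a3 (MCT4), the lactate exporter of glycolytic cells, and Slc16a1 (MCT1), the carrier linked to lactate uptake in heart, had differences of opposite sign.

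Ldhb read 7.79, 7.97, 7.44 and 7.49 on the GFP-high arrays, and 6.76, 7.11, 6.84 and 7.17 on the GFP-low arrays. The gap between the groups was wider on slide 1, with a difference of 0.95 against 0.46 on slide 2. Pooled it was 0.70 ± 0.24, or 1.63-fold (limma adjusted p = 0.265; exact permutation p = 0.0286), from a probe at chr6:142438838-142438897 of mm9, and 0.45 under quantile normalisation. Ldha read 8.29, 8.55, 7.78 and 8.15 against 7.60, 8.18, 6.71 and 7.99. GFP-low replicate 3 was its lowest array by far, and the difference was 0.57 ± 0.36 (limma adjusted p = 0.486), with 0.34 from a second probe.

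Slc16a1 read 4.66, 4.67, 5.21 and 4.45 against 5.39, 5.19, 4.99 and 5.34. GFP-high replicate 3 lay among the GFP-low arrays, and without it the groups did not overlap. The difference was -0.48 ± 0.25 (limma adjusted p = 0.408), and its 2 other probes gave -0.71 and -0.75. Slc16a3 read 6.44, 6.42, 6.04 and 6.74 against 5.87, 6.07, 5.59 and 6.03, overlapping through a single pair of arrays, with a difference of 0.52 ± 0.25 (limma adjusted p = 0.374; exact permutation p = 0.0571).

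Pyruvate dehydrogenase kinases switch off the entry of pyruvate into the citric acid cycle. Pdk3 was higher on every GFP-high array and Pdk1 was not. Pdk3 read 3.28, 3.49, 3.005 and 2.89 on the GFP-high arrays, and 2.80, 2.65, 2.51 and 2.38 on the GFP-low arrays. The gap was narrow, and the 2 slides gave 0.66 and 0.50. The difference was 0.58 ± 0.24, or 1.50-fold (limma adjusted p = 0.327; exact permutation p = 0.0286), a second probe gave 0.72, normexp correction gave 0.38, and the probe lies at chrX:91010552-91014244 of mm9. Pdk1, a HIF target, read 3.47, 4.10, 5.42 and 3.77 against 4.28, 3.93, 4.62 and 4.06. Replicate 3 was the highest array in both groups, and the difference was -0.03 ± 0.43 (limma adjusted p = 0.976).

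The side branches gave little. The name Pgm1 in the files is the current Pgm2, and the name Pgm2 is the current Pgm1, the phosphoglucomutase that links glycolysis to glycogen. The second gave 0.27 ± 0.25 (limma adjusted p = 0.620). The first was dim, with 2 GFP-high arrays and 4 GFP-low arrays above background, and gave 0.03 ± 0.79 (limma adjusted p = 0.989), with 1.34 within slide 1 and -1.27 within slide 2. Bpgm, which makes 2,3-bisphosphoglycerate and is abundant in red cells, gave 0.31 ± 0.30 (limma adjusted p = 0.647), and a dimmer probe gave 1.47.

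Probe by probe, 52 of the 59 probes of the 32 genes were tested, and 45 were positive and 7 negative. None passed on its own (0.0379% of all tested probes did). Of the 13 genes with 2 or more tested probes, Pfkp alone had probes of opposite sign, whereas 31.4% of such genes on the array did.

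The genes varied together across the arrays within a group. GFP-high replicate 3 was the lowest of its group for 21 of the 32 genes and GFP-low replicate 3 for 20, and 16 genes were lowest on both. The median deviation of the 32 genes from their group mean was -0.35 and -0.34 on these arrays, and between -0.06 and 0.23 on the others. All tested genes were also low on these arrays, with median deviations of -0.15 and -0.11, and between -0.03 and 0.13 on the others. How many of all tested genes were lowest on replicate 3 was not counted. Pdk1, Slc16a1, Pfkfb3 and Pfkfb4 went against the low values of GFP-high replicate 3, being highest of their group there. On GFP-low replicate 3, Pdk1 was again the highest of its group, at 4.62, but Slc16a1 was the lowest, at 4.99. Pfkfb3 and Pfkfb4 were neither highest nor lowest on that array.

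Markers of the labelled tissue had a similar order over the arrays. The summed linear signal of the 13 cardiomyocyte markers was 4996, 5506, 3491 and 4262 on the GFP-high arrays, and 3379, 4206, 2433 and 4194 on the GFP-low arrays. It was lowest on replicate 3 in both groups. All 13 differences were positive, with a median of 0.34 and no gene separated or called. Of all tested genes 62.1% were positive, with a median of 0.16, and of the brightest decile 81.5%, with a median of 0.24. The part of the marker differences in the glycolysis values was not tested.

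**Figure D5:**
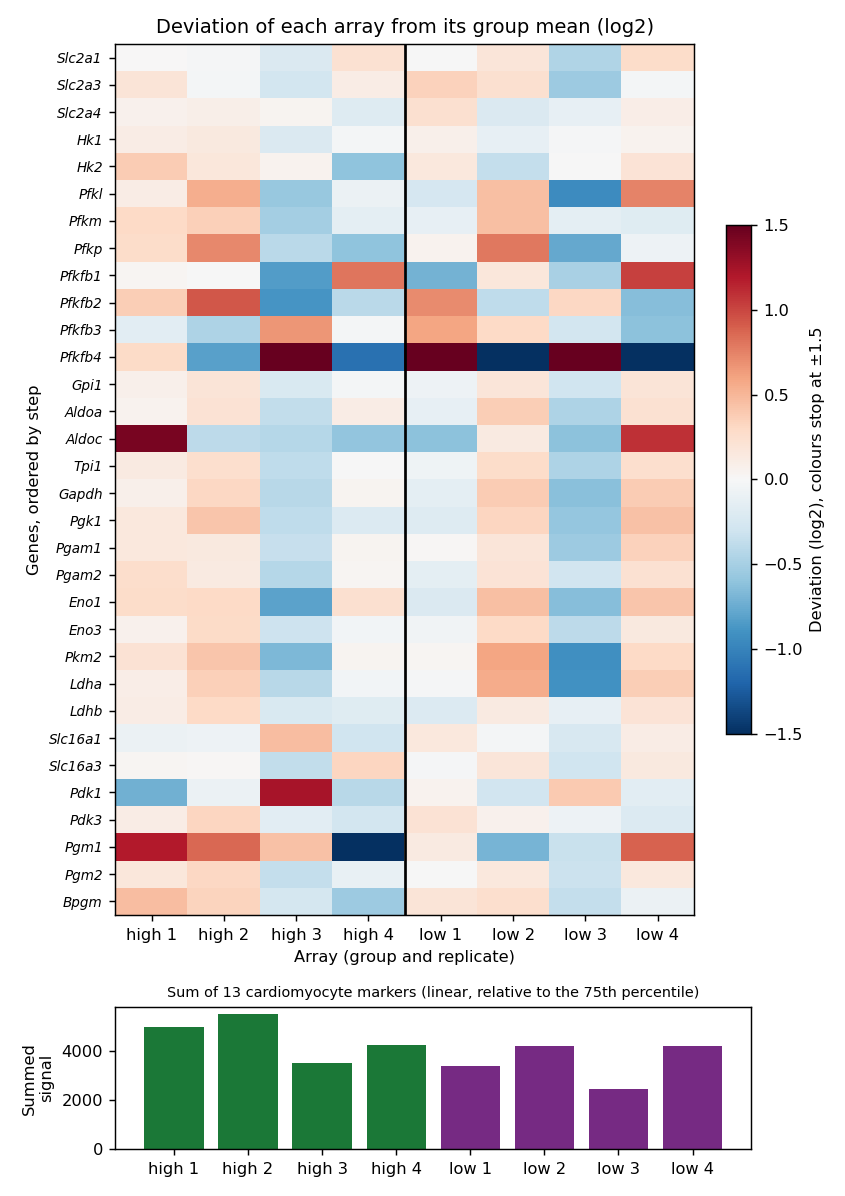
Upper panel, deviation of each of the 32 genes on each array from the mean of its group (log2, red above and blue below), with genes ordered by step and the GFP-high arrays left of the line. Lower panel, summed linear signal of the 13 cardiomyocyte markers on the same arrays, relative to the 75th percentile. Replicate 3 of both groups is blue for most genes, and its marker sum is the lowest of its group, 3491 and 2433.

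Markers of other cells were looked at beside them. Of 13 skeletal muscle genes, 4 were tested. Among the defining factors, Myod1, Myf5, Myf6, Pax3 and Pax7 were above background on no array, and Myog on 1. The tested genes Tnni2, Atp2a1, Acta1 and Tnnt3 overlapped between groups, and the summed signal was 159.4 to 244.5 in GFP-high and 106 to 187.4 in GFP-low. Erythroid genes, which also matter for Bpgm, summed to 34.42, 50.39, 198.2 and 26.27 on the GFP-high arrays. On the GFP-low arrays they summed to 187.7, 36.46, 127.3 and 13.43. The erythroid sum was thus highest on replicate 3 in GFP-high and on replicate 1, followed by replicate 3, in GFP-low. Its part in the low glycolysis values of replicate 3 was not tested. Endothelial genes summed to 3.375, 2.981, 5.64 and 1.857 on the GFP-high arrays, and to 6.173, 2.382, 5.156 and 2.959 on the GFP-low arrays. Of these 10 genes 5 were tested, with overlapping groups. Flt1, Nfatc1 and Esam were above background on all 8 arrays, Cdh5 and Kdr on 5, and Pecam1 and Tek on none. Mesenchymal genes summed to 2.18 to 5.424 and 2.831 to 12.21, and epicardial genes to 3.591 to 5.485 and 2.707 to 3.928. Neuronal genes summed to 0.786 to 3.586 and 1.143 to 3.577, and endodermal genes to 0.4964 to 1.251 and 0.2533 to 8.036. GFP-low replicate 1 held the highest endodermal, mesenchymal and endothelial sums of all 8 arrays, at 8.036, 12.21 and 6.173. The leukocyte sum alone did not overlap, at 11.54 to 15.84 against 3.674 to 6.334, and it followed a single gene, the lysozyme Lyz2, which had means of 3.56 and 2.10 on the log2 scale and separated groups (difference 1.46 ± 0.24, limma adjusted p = 0.0951). Of the other leukocyte genes only Cd68 was tested, its groups overlapped, and Ptprc and Csf1r were above background on no array. No gene of these lists was called.

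Beyond the 32 genes, 59 other genes of glucose metabolism were listed from textbook knowledge, of which 57 were on the array and 41 were tested. Of these Eno2, the neuronal enolase, rose, and none fell, where 0.14% of all tested genes passed. Of the 41, 26 were positive, a share close to the 62.1% of all tested genes, and the median was 0.23. Eno2 read 3.22, 3.77, 3.84 and 3.44 on the GFP-high arrays and 1.63, 1.42, 0.68 and 0.56 on the GFP-low arrays, a difference of 2.50 ± 0.32 (limma adjusted p = 0.0447). It passed in 6 of 21 alternative settings, and in none of the 8 that left out an array, where the adjusted p ran from 0.0597 to 0.137. The next smallest p-values belonged to the glycerol phosphate dehydrogenases, which pass electrons from cytosolic NADH to mitochondria. Gpd2 gave -1.31 ± 0.33 with separated groups (limma adjusted p = 0.183). Gpd1 gave 3.82 ± 0.96 (limma adjusted p = 0.185) but was above background on only 5 of 8 arrays. Its values ran from -1.10 to 1.93 in GFP-high and from -5.02 to -1.40 in GFP-low. The size of its difference therefore rests in part on signals that were not above background.

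Of 25 genes of the HIF pathway and the hypoxia response, 23 were tested and none was called; 18 were positive, where 62.1% of all tested genes were, and the median was 0.39. In 5 of the 23 the groups were separated, all higher in GFP-high, where 5.87% of all tested genes were separated in that direction. The smallest p-values were those of Adm, the vasodilator adrenomedullin, at 1.45 ± 0.25 (limma adjusted p = 0.104), Ddit4, an inhibitor of mTOR, at 0.91 ± 0.25 (limma adjusted p = 0.201), and Ndrg1, a stress-induced gene, at 1.22 ± 0.36 (limma adjusted p = 0.235). Adm read 3.13, 2.999, 2.52 and 3.14 on the GFP-high arrays and 1.84, 1.46, 1.36 and 1.29 on the GFP-low arrays, without overlap. Hif1a, which encodes a subunit of HIF itself, went the other way, at -1.44 ± 0.62 (limma adjusted p = 0.346). It read -0.54, 1.07, 2.34 and 2.01 on the GFP-high arrays and 2.21, 2.73, 3.42 and 2.26 on the GFP-low arrays, with overlap.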

How the data were processed

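Each of the 8 samples was read on 1 array. The deposited files hold spot intensity on a linear scale; per the file headers and the submitters' processing notes, Agilent Feature Extraction 10.5.1.1 subtracted background, took out spatial trends and set surrogate values for the lowest spots. The authors' deposited series table was identical to them. Log2 intensity minus the 75th percentile of the array over non-control spots was analysed with R 4.3.3 and limma 3.58.1 (lmFit, eBayes, group as the only term, Benjamini-Hochberg over 12889 genes). Control and outlier spots were left out, and spots of a probe were averaged. The brightest probe stood for a gene, tested if well above background on at least 4 of 8 arrays. Single genes and ratios were also tested exactly over the 70 assignments of arrays. The fit was also run on simulated data with independent noise, which held no slide, replicate or shared array effect and so cannot speak to these. The number of arrays limits the precision. Array coordinates are of mm9; promoters are RefSeq's on GRCm38.p6.

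The members and lists were chosen with earlier results of these data known. Every member is described, with array values for non-overlapping members, carriers, hexokinases, muscle-type genes and their counterparts, and some further members shown for their overlap; from other lists the called gene and the 3 with the smallest p are named. Lyz2, Cd68, Hif1a, Myog, the tested skeletal muscle genes and the tested endothelial genes were named after their values were seen. Alternatives covered background correction, normalisation, floor, filter, probe choice, slide, replicate block, variance model and each array left out.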

Additional observations from a re-analysis of the deposited data

Results flagged for a closer look

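In 4 of 86 groups of 4 arrays examined (32 genes and 11 ratios in both groups), 1 array stood far from the other 3 by Dixon's test; chance alone marks about 1 in 20. For Slc2a4, GFP-high replicate 4 read 3.66 and the others 3.89 to 3.94. For Aldoc, GFP-high replicate 1 read 1.39 and the others -0.62 to -0.42. For Eno1, GFP-high replicate 3 read 4.12 and the others 5.16 to 5.23. For Pfkm, GFP-low replicate 2 read 3.55 and the others 2.92 to 2.99. What set these arrays apart was not tested.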

How the results depend on the processing

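Across 21 alternatives, no pair passed, and no glycolysis gene passed except Slc2a4 with a common floor (1 gene called, and 1 HIF gene, Adm). Calls among all genes were 18 as reported, 9 under quantile normalisation, 42 with the floor, 3 without a filter, 11 with all 8 arrays required, 11 with the slide as a block, 0 under array median scaling and within slides 1 and 2, and 0 to 7 with 1 array left out. The call of Eno2 was lost (0 other pathway genes) under quantile normalisation, median scaling, no filter, the slide block, within each slide, the replicate block and with any array left out (0 to 0); its adjusted p ran from 0.0155 to 0.514. With 1 array left out, 27 to 29 glycolysis genes were positive, 7 to 17 did not overlap, the median ran from 0.27 to 0.61, and 0 to 0 glycolysis genes, HIF genes or pairs were called. Groups did not overlap for 28 genes within slide 1 (52.4% of all tested genes) and 11 within slide 2 (31.4%). Quantile normalisation gave a median of 0.20. The cause was not tested, except that subsets hold fewer arrays.

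A replicate block left 0 genes called. Deviations of same-numbered arrays correlated at 0.115, 0.154, 0.301 and 0.065 over all tested genes, and at -0.053, 0.446, 0.715 and 0.168 over the 32 genes. Of the arrays, 4 of 4 GFP-high and 3 of 4 GFP-low correlated best with their own number over all tested genes. The labels do not state whether same-numbered samples came from the same dissociation. The main fit treated all samples as independent, and its p-values and standard errors hold only under that assumption. Number by number, 28, 28, 29 and 21 of the 32 genes were higher in GFP-high, with medians of 0.67, 0.43, 0.63 and 0.13, beside 0.28, 0.19, 0.12 and 0.0084 for all tested genes.

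Signs turned for small differences. Quantile normalisation gave -0.071 for Hk1, -0.031 for Pgam1 and -0.11 for Eno1, and normexp correction -0.0047 for Hk1 and -0.14 for Eno1. Slide 1 alone gave -0.52 for Pfkfb3, -0.043 for Pfkm to Pfkl and 0.0030 for Pfkm to Pfkp; the mean of probes gave 0.21 for the latter. Slide 2 alone gave -0.012 for Hk2, -0.011 for Aldoc, -0.13 for Eno1, 0.25 for Pdk1, -1.27 for Pgm1, -0.10 for Pgam2 to Pgam1, -0.033 for Hk2 to Hk1, -0.49 for Aldoc to Aldoa and -0.15 for Ldhb to Ldha. With 1 array left out, the ranges were -0.17 to 0.31 for Eno1, -0.45 to 0.21 for Pdk1, -0.36 to 0.87 for Pgm1, -0.043 to 0.098 for Pgam2 to Pgam1, -0.28 to 0.29 for Pfkm to Pfkl, -0.23 to 0.13 for Pfkm to Pfkp, -0.21 to 0.54 for Aldoc to Aldoa and -0.0092 to 0.39 for Ldhb to Ldha. Surrogate values filled 34.8% to 49.4% of spots, which limits dim genes such as Pfkfb4.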
